A study of Sus scrofa with 8 samples.

Results

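The proteasome genes considered here are those whose symbol starts with PSMA, PSMB, PSMC, PSMD, PSME, PSMF or PSMG on a porcine Affymetrix array, which was hybridised with RNA from the liver of sows (domestic pigs, Sus scrofa) that were either lactating or not. The symbol as deposited gave 22 genes, and 15 more carried a provisional name or an old symbol in the deposited table and received a PSM symbol through their Entrez identifier, so that 37 genes on 44 probe sets were described, of 8143 genes with a symbol and 23999 probe sets tested. The other 12 PSM genes of the pig gene table were not matched to a probe set by symbol and are not analysed here: PSMA2, PSMA7, PSMA8, PSMB1, PSMB2, PSMB11, PSMC3IP, PSMC4, PSMD2, PSMD7, PSMG1 and PSMG2. Of these, PSMC3IP shares the start of the symbol but is assigned to no proteasome role here. Where a gene had several probe sets, the one with the brightest average across the 8 arrays stands for it. All sows were female and the tissue was liver in both groups. The non-lactating group served as control, and no treatment, genotype or age is given in the sources used here. Each group had 8 sows, RNA of 2 sows was combined in equal amounts into a pool, and the 4 pools per group were hybridised to 1 array each, so that n always counts pools and a pool is an average of 2 animals.

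The 26S proteasome degrades proteins that carry ubiquitin chains. Its barrel, the 20S core particle, is built of outer alpha rings (PSMA genes) and inner beta rings (PSMB genes) that hold the protein-cutting sites, and it is capped by the 19S regulatory particle, whose ATPases (PSMC genes) unfold substrates and whose other subunits (PSMD genes) bind ubiquitin chains and remove them. In cells exposed to interferon gamma and in immune cells, the subunits PSMB8, PSMB9 and PSMB10 take the places of the catalytic subunits PSMB5, PSMB6 and PSMB7 and form the immunoproteasome, which supplies peptides for MHC class I. Activators of the PSME family can cap the core in place of the 19S particle, and liver has a high turnover of protein of its own.

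Proteasome genes were mostly higher in lactating liver, by small amounts. Of the 37 genes, 7 rose in lactating pools and 0 fell (limma, Benjamini-Hochberg adjusted p below 0.05 over all probe sets), against 6.12% of all genes that rose and 2.52% that fell. The 7 genes make up 18.9% of the 37. They were the core subunits PSMA5 and PSMA6, the 19S subunits PSMD6, PSMD12 and PSMD14, and the activators PSME3 and PSME4. At an unadjusted p below 0.05, 17 were higher and 0 lower, where 17.4% of all genes were higher and 10% lower. The difference, lactating minus non-lactating on the log2 signal scale, was positive for 34 of the 37 genes, while 52.6% of all genes had a positive difference. When the arrays were rescaled with cyclic loess, it was positive for 30 of the 37, and no share of all genes is given for that fit. The median difference was 0.22 over the 37 genes and 0.01 over all genes, and the extremes were -0.15 for PSME2 and 0.58 for PSMA5.

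In 13 of the 37 genes, or 35.1%, the 4 lactating values all lay above the 4 non-lactating values, against 12.8% of all genes. None of the 37 had all lactating values below the non-lactating ones, against 6.51% of all genes. The spread between pools of 1 group was like that of other genes: the median SD of the 37 genes was 0.14 among non-lactating and 0.12 among lactating pools, and 0.13 and 0.14 over all genes. None of the 37 probe sets was among the 25% of probe sets with the lowest mean signal.

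**Figure D1:**
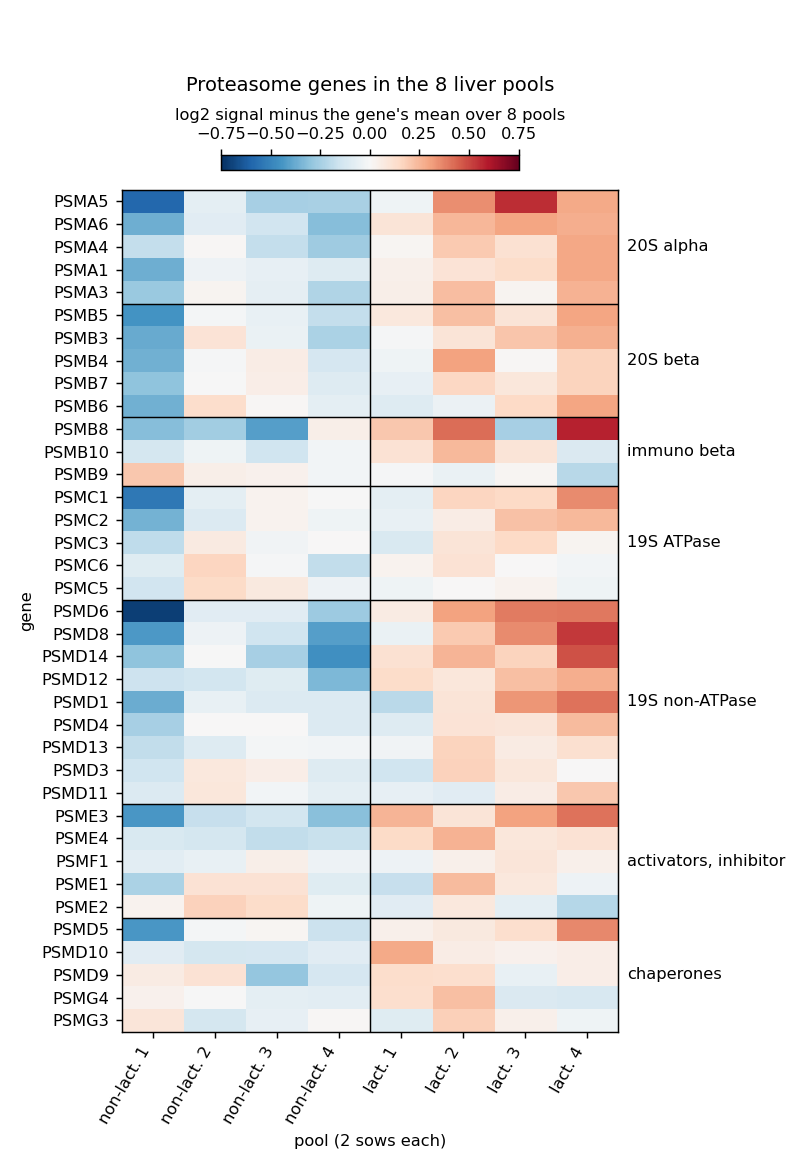
Log2 signal of each of the 37 proteasome genes (rows, grouped by role) in each of the 8 pools (columns) as the deviation from the gene's mean over the 8 pools, blue below and red above that mean. Non-lactating pool 1 was the lowest of the 8 pools in 23 genes and lactating pool 4 the highest in 19.

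The pools of a group were not alike. Non-lactating pool 1 was the lowest of all 8 pools in 23 of the 37 genes, and lactating pool 4 was the highest in 19. The median deviation of the 37 genes from their 8-pool means was -0.25, -0.01, -0.05 and -0.10 in non-lactating pools 1 to 4, and -0.01, 0.15, 0.09 and 0.24 in lactating pools 1 to 4. Lactating pool 1 thus lay beside non-lactating pool 2, and the rest of the lactating pools lay above all non-lactating pools. Over all 8143 genes the same median stayed between -0.03 and 0.02 in every pool. Lactating pool 1 exceeded all non-lactating pools in 17 of the 37 genes, against 29, 26 and 25 for lactating pools 2, 3 and 4, and it was the lowest lactating pool in 23 genes. Among non-lactating pools, pool 2 was the highest in 20 genes.

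The same pools differed in the 3' minus 5' signal of control transcripts, a reading of RNA integrity in which a larger value means less signal from the 5' end. Averaged over GAPDH, actin and EF1a, it was 5.02, 4.21, 4.14 and 4.49 in non-lactating pools 1 to 4, and 3.90, 4.00, 3.75 and 3.34 in lactating pools 1 to 4. It was highest in non-lactating pool 1, where the proteasome genes were lowest, and lowest in lactating pool 4, where they were highest. The order did not hold for all pools. Lactating pool 2 had the highest value of the lactating pools, 4.00, with a proteasome median of 0.15, and lactating pool 1 had 3.90 with -0.01. With this mean as a covariate in limma, 0 of the 37 genes and 0 of all probe sets passed the threshold. In that fit 3 of the 37 had an unadjusted p below 0.05, 23 of 37 differences were positive and their median was 0.03. Of the 7 genes that rose, 6 had smaller differences in it, which were 0.31 for PSMA5, 0.29 for PSMA6, 0.16 for PSMD6, 0.26 for PSMD12, 0.30 for PSMD14 and 0.27 for PSME3, and PSME4 had 0.36. The groups do not overlap in this mean, so lactation and the mean 3' minus 5' signal cannot be told apart in these pools. GAPDH alone also separated the groups, but actin and EF1a alone did not. Lactating pool 2 had 6.26 for actin, above the 6.17 of non-lactating pool 3. For EF1a it had 2.99, above the 2.96 of non-lactating pools 2 and 3.

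**Figure D2:**
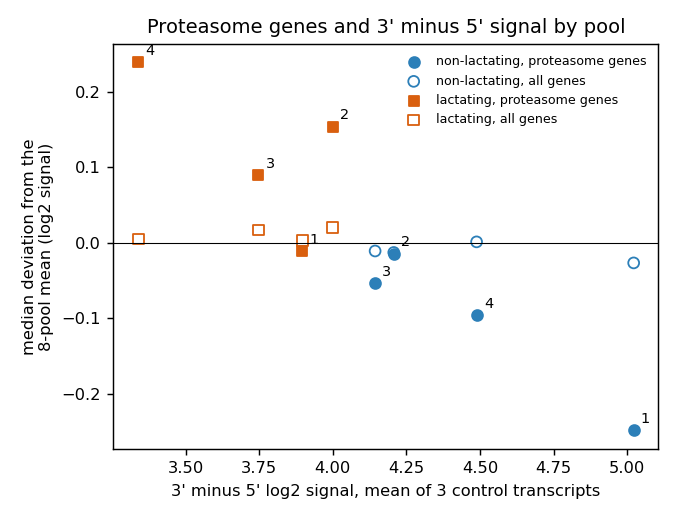
Median deviation of the log2 signal from each gene's 8-pool mean (vertical axis) against the mean 3' minus 5' log2 signal of 3 control transcripts (horizontal axis), 1 point per pool, numbered within its group. Filled symbols are the 37 proteasome genes and run from -0.25 to 0.24, and open symbols are all 8143 genes and stay between -0.03 and 0.02.

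Leaving out single pools changed the calls. No proteasome gene passed without non-lactating pool 1 (smallest adjusted p = 0.0524, limma), when 14 still had an unadjusted p below 0.05 and the median difference was 0.17. When non-lactating pool 2, 3 or 4 was left out, 4, 4 and 1 genes rose. When lactating pool 1, 2, 3 or 4 was left out, 7, 3, 2 and 1 genes rose. The number of probe sets called in the whole table, of 23999 tested, fell as well, from 1643 (6.85% of all probe sets). It was 406, 1162, 1215 and 646 when non-lactating pool 1, 2, 3 or 4 was left out. When lactating pool 1, 2, 3 or 4 was left out, it was 1424, 872, 775 and 598. The medians of the 37 genes in these fits were 0.17 to 0.28.

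In the alpha ring of the core, all 5 measured genes had lactating values that lay above every non-lactating value, and 2 of them passed the threshold. Over all genes, 12.8% had such values and 6.12% rose. PSMA6 had log2 signals of 10.45, 10.73, 10.67 and 10.50 in non-lactating pools 1 to 4 and 10.91, 11.07, 11.11 and 11.09 in lactating pools 1 to 4. The lactating pools were close together, with an SD of 0.09, and the lowest of them, pool 1, was still above the highest non-lactating pool, pool 2. PSMA6 rose by 0.46 ± 0.09 (SE, n = 4 each), or 1.37-fold in signal (limma adjusted p = 0.0198). The deposited alignment puts it on chromosome 7, at 70475065 to 70500148 of the plus strand. It did not pass without non-lactating pool 1, non-lactating pool 4, lactating pool 3 or lactating pool 4, with differences of 0.41 to 0.51 and adjusted p-values of 0.0225 to 0.0597 over the 8 fits that left out 1 pool each.

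PSMA5, another alpha ring subunit, had the largest difference of the 37 genes. Its log2 signals were 9.05, 9.56, 9.39 and 9.40 in non-lactating pools and 9.61, 9.98, 10.19 and 9.92 in lactating pools 1 to 4. Lactating pool 1 lay just above non-lactating pool 2, so the groups were separated by a narrow gap, and non-lactating pool 1 lay well below the rest. PSMA5 rose by 0.58 ± 0.14 (SE, n = 4 each), or 1.49-fold (limma adjusted p = 0.0398), at chromosome 4, positions 115210937 to 115233227, plus strand. With cyclic loess it did not pass (limma adjusted p = 0.0637). It passed in 2 of the 8 fits with 1 pool left out, those lacking non-lactating pool 2 or lactating pool 1 (differences 0.48 to 0.68, adjusted p 0.0243 to 0.0997 over the 8).

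PSMA1, PSMA3 and PSMA4, the other measured alpha subunits, had differences of 0.28 ± 0.10, 0.28 ± 0.10 and 0.31 ± 0.09 (SE, n = 4 each) and did not pass (limma adjusted p = 0.108, 0.111 and 0.0689). PSMA3 showed the smallest difference of the ring, with 11.47, 11.77, 11.68 and 11.52 in non-lactating and 11.79, 11.98, 11.77 and 12.01 in lactating pools 1 to 4. Its lowest lactating pool was barely above its highest non-lactating pool.

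In the beta ring, 0 of 5 measured genes passed, although all 5 differences were positive, with a median of 0.22. At an unadjusted p below 0.05, 2 were higher, where 17.4% of all genes were. PSMB5, the subunit that cuts after hydrophobic residues (chymotrypsin-like activity), had 10.46, 10.89, 10.85 and 10.73 in non-lactating and 10.99, 11.13, 11.01 and 11.21 in lactating pools 1 to 4. Its groups did not overlap, and the difference was 0.35 ± 0.11 (SE, n = 4 each, limma adjusted p = 0.0790). PSMB7, which has trypsin-like activity, had 10.79, 11.09, 11.14 and 10.99 in non-lactating and 11.03, 11.24, 11.17 and 11.26 in lactating pools, a difference of 0.17 ± 0.10 (SE, n = 4 each). PSMB6, with caspase-like activity, had 10.35, 10.84, 10.72 and 10.64 against 10.61, 10.67, 10.86 and 11.01, a difference of 0.15 ± 0.12 (SE, n = 4 each). In PSMB6 and PSMB7 lactating pool 1 fell within the non-lactating range, in PSMB6 lactating pool 2 did as well, and non-lactating pool 1 was the lowest of all pools. PSMB3 and PSMB4, which have no cutting site, had differences of 0.28 and 0.22 (limma adjusted p = 0.172 and 0.273).

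Of the 3 subunits of the immunoproteasome 0 passed (limma), and 2 differences were positive and 1 negative. At an unadjusted p below 0.05, 1 was higher, where 17.4% of all genes were. PSMB8 had log2 signals of 6.47, 6.52, 6.37 and 6.83 in non-lactating and 6.99, 7.21, 6.53 and 7.36 in lactating pools 1 to 4. Lactating pools 1, 2 and 4 lay above all non-lactating pools, whereas lactating pool 3 lay among them. The difference of 0.47 ± 0.17 (SE, n = 4 each) did not pass (limma adjusted p = 0.131), and without lactating pool 3 it was 0.64 and passed (limma adjusted p = 0.0419). PSMB10 had 8.28, 8.38, 8.26 and 8.39 against 8.52, 8.65, 8.51 and 8.30, a difference of 0.17 ± 0.09 (SE, n = 4 each, limma adjusted p = 0.288), with lactating pool 4 within the non-lactating range.

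PSMB9 was 1 of the 3 proteasome genes with a negative difference, beside PSME2 and PSMC5. Its log2 signals were 7.68, 7.52, 7.51 and 7.46 in non-lactating and 7.47, 7.43, 7.49 and 7.27 in lactating pools 1 to 4, so the groups overlapped. The difference was -0.13 ± 0.08 (SE, n = 4 each, limma adjusted p = 0.402). PSMB8 and PSMB9 lie in the MHC region, and in the deposited alignments their probe sets were 10763 bases apart on chromosome 7, at 29329054 to 29332177 (minus strand) and 29342941 to 29348101 (plus strand), each with a second alignment.

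Whether an immunoproteasome subunit moved differently from the subunit it replaces was tested on the log2 difference of the pair within each pool, for 3 pairs, with adjustment over the 3. A within-pool difference compares changes, and its size has no meaning as a ratio of transcripts. PSMB9 minus PSMB6 shifted by -0.28 between the groups, from -3.09 ± 0.29 to -3.37 ± 0.26 (SD, n = 4 each, exact permutation test, 2-sided p = 0.257, adjusted p = 0.771). PSMB10 minus PSMB7 was -2.67 ± 0.16 and -2.68 ± 0.19 (SD, n = 4 each, exact permutation p = 0.971, adjusted p = 0.971). PSMB8 minus PSMB5 shifted by 0.12, from -4.19 ± 0.28 to -4.06 ± 0.28 (SD, n = 4 each, exact permutation p = 0.600, adjusted p = 0.900). The smallest p that 4 against 4 pools allow is 0.0286, so that 1 pair alone could not go below an adjusted p of 0.0857, and no unequal change was detected.

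**Figure D3:**
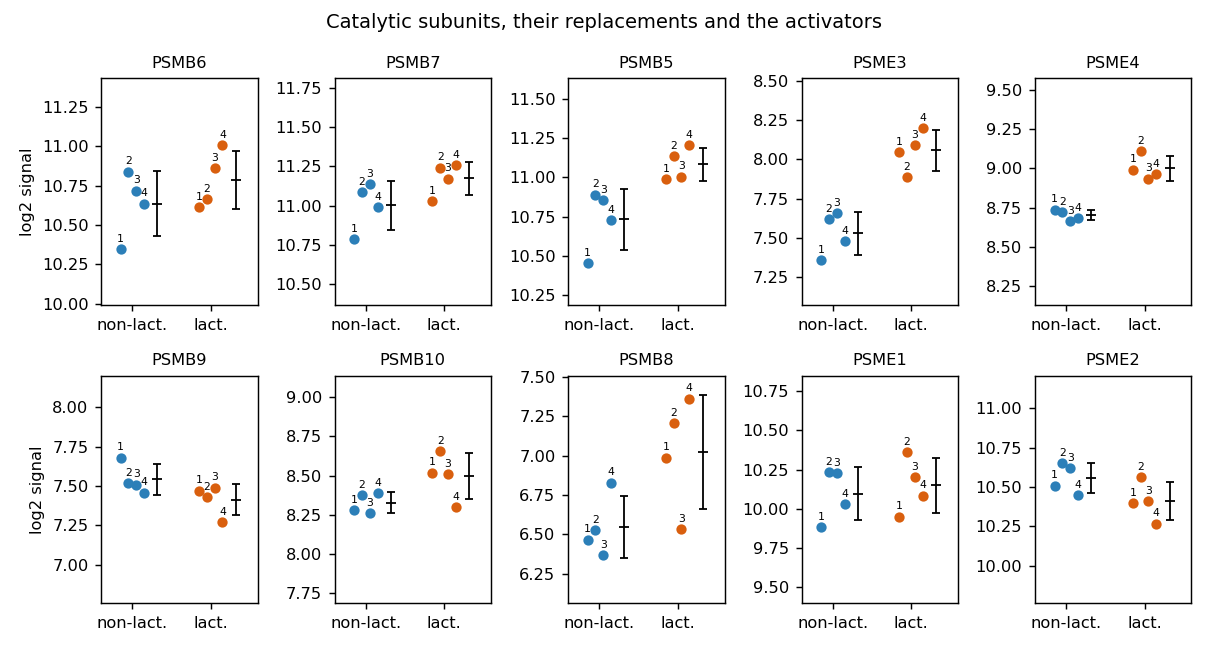
Log2 signal of the catalytic subunits PSMB6, PSMB7 and PSMB5 above the immunoproteasome subunits PSMB9, PSMB10 and PSMB8 that replace them, and of the activators PSME3, PSME4, PSME1 and PSME2, by pool number, with the mean and SD of 4 pools beside the points (blue non-lactating, orange lactating). The vertical axes differ in level and share 1 span, and lactating pool 3 of PSMB8 is at 6.53, within the non-lactating range.

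Of the 5 measured activator and inhibitor genes, 2 rose, where 6.12% of all genes rose. PSME3 (PA28 gamma), which forms a ring of identical subunits and acts in the nucleus, had log2 signals of 7.36, 7.62, 7.66 and 7.48 in non-lactating and 8.05, 7.89, 8.09 and 8.20 in lactating pools 1 to 4. The lowest lactating pool, pool 2, was above the highest non-lactating pool, pool 3. PSME3 rose by 0.53 ± 0.10 (SE, n = 4 each), or 1.44-fold, with the smallest adjusted p of the 37 genes (limma adjusted p = 0.0178). It was lost without non-lactating pool 1 (adjusted p = 0.0524) and passed in the other 7 fits with 1 pool left out, with differences of 0.47 to 0.58. The deposited alignment puts it on chromosome 12, at 17630394 to 17636034 of the minus strand.

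PSME4 (PA200), a single-chain activator of the core that also acts in the nucleus, had 8.74, 8.72, 8.67 and 8.68 in non-lactating and 8.99, 9.11, 8.93 and 8.96 in lactating pools 1 to 4. The non-lactating pools differed little, with an SD of 0.03, and all lactating pools lay above them. PSME4 rose by 0.30 ± 0.07 (SE, n = 4 each), or 1.23-fold (limma adjusted p = 0.0348). It passed in none of the 8 fits with 1 pool left out, whose differences were 0.26 to 0.32 and adjusted p-values 0.0549 to 0.0797. Non-lactating pool 1 was its highest non-lactating pool, and with the replicate number as a block PSME4 did not pass (limma adjusted p = 0.0522). The deposited alignment puts it on chromosome 3, at 81234330 to 81235690 of the plus strand.

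PSME1 and PSME2 (PA28 alpha and beta) form a mixed ring in the cytoplasm and are induced by interferon gamma. PSME1 had 9.89, 10.23, 10.23 and 10.03 in non-lactating and 9.95, 10.36, 10.20 and 10.09 in lactating pools 1 to 4, a difference of 0.06 ± 0.11 (SE, n = 4 each, limma adjusted p = 0.833). PSME2 had 10.51, 10.65, 10.62 and 10.45 against 10.40, 10.56, 10.41 and 10.27, a difference of -0.15 ± 0.09 (SE, n = 4 each, limma adjusted p = 0.345). The groups overlapped for both, and the 95% intervals of the differences were -0.20 to 0.31 for PSME1 and -0.34 to 0.04 for PSME2. Their probe sets aligned 3962 bases apart on chromosome 7. PSMF1 (PI31), first described as an inhibitor of the core, had 7.966, 7.990, 8.088 and 8.005 in non-lactating and 8.002, 8.079, 8.133 and 8.082 in lactating pools, a difference of 0.06 ± 0.07 (SE, n = 4 each, limma adjusted p = 0.658), with groups that overlapped. Whether the activators differ from each other in their response was not tested.

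The non-ATPase subunits of the 19S particle had 9 measured genes, all with positive differences and a median of 0.32. Of these 9, 3 rose, where 6.12% of all genes rose. PSMD14 encodes the enzyme that cuts the ubiquitin chain from a substrate as it enters the core. Its log2 signals were 9.65, 9.95, 9.71 and 9.49 in non-lactating and 10.07, 10.21, 10.12 and 10.43 in lactating pools 1 to 4, without overlap. PSMD14 rose by 0.51 ± 0.11 (SE, n = 4 each), or 1.42-fold (limma adjusted p = 0.0312), at chromosome 15, positions 63447036 to 63473517, minus strand. It did not pass with the mean of its probe sets (limma adjusted p = 0.0564) or with a replicate block (limma adjusted p = 0.0518). It passed in 2 of the 8 fits with 1 pool left out (those lacking non-lactating pool 2 or lactating pool 1), with differences of 0.43 to 0.59 and adjusted p-values of 0.0277 to 0.0876. A second, dimmer probe set on chromosome 15 (positions 63401806 to 63408791) had 5.97, 5.63, 5.81 and 5.89 against 5.82, 5.90, 6.26 and 6.51, a difference of 0.30 ± 0.15 (SE, n = 4 each) with overlap that did not pass (limma adjusted p = 0.278).

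PSMD6 and PSMD12 are structural subunits of the lid, the part of the 19S particle that holds PSMD14. PSMD6 had 9.32, 9.94, 9.94 and 9.75 in non-lactating and 10.09, 10.33, 10.41 and 10.42 in lactating pools 1 to 4. Non-lactating pool 1 was well below the other pools, and the lactating pools lay above all non-lactating ones. PSMD6 rose by 0.57 ± 0.14 (SE, n = 4 each), or 1.49-fold (limma adjusted p = 0.0429), at chromosome 13, positions 38360220 to 38381040, minus strand. With cyclic loess it did not pass (limma adjusted p = 0.0689). It passed only in the fits lacking non-lactating pool 3 or lactating pool 1 among the 8 fits with 1 pool left out (differences 0.43 to 0.65, adjusted p 0.0409 to 0.106).

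PSMD12 had 9.53, 9.55, 9.60 and 9.35 in non-lactating and 9.83, 9.77, 9.91 and 9.96 in lactating pools 1 to 4, and here non-lactating pool 4, not pool 1, was the lowest. PSMD12 rose by 0.36 ± 0.08 (SE, n = 4 each), or 1.29-fold (limma adjusted p = 0.0311), at chromosome 12, positions 11715309 to 11717039, minus strand. It did not pass with cyclic loess (limma adjusted p = 0.0596) or with a replicate block (limma adjusted p = 0.0564). It passed without non-lactating pool 3, lactating pool 1 or lactating pool 2, and not without each of the other 5 pools (differences 0.31 to 0.39, adjusted p 0.0447 to 0.0836 over the 8).

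**Figure D4:**
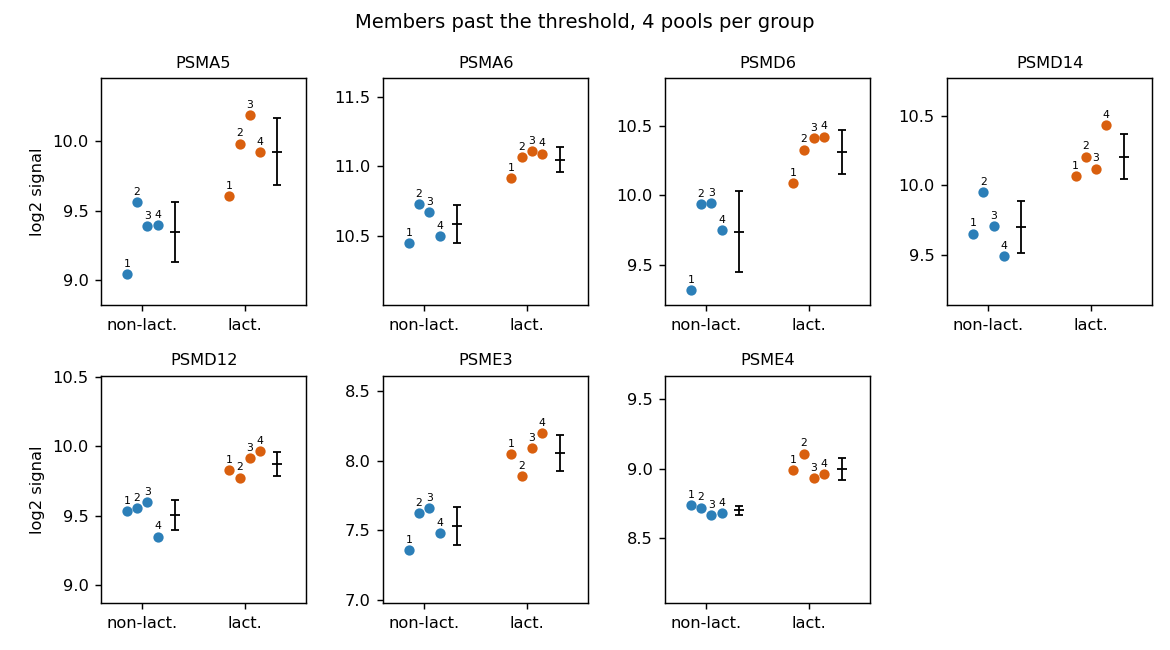
Log2 signal of the 7 genes past the threshold in each pool, numbered within its group, with the mean and SD of 4 pools beside the points (blue non-lactating, orange lactating). The vertical axes differ in level and share 1 span, and in each panel all lactating points lie above all non-lactating points, by the narrowest gap in PSMA5.

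PSMD8, also a lid subunit, was nearest to the threshold among the rest. It had 10.22, 10.62, 10.51 and 10.24 in non-lactating and 10.61, 10.85, 11.01 and 11.19 in lactating pools 1 to 4, so that lactating pool 1 lay just below non-lactating pool 2. Its difference was 0.52 ± 0.14 (SE, n = 4 each, limma adjusted p = 0.0524), and it passed without lactating pool 1 (0.62, adjusted p = 0.0299). PSMD1, the large scaffold of the base, had a difference of 0.32 ± 0.14 (SE, n = 4 each, limma adjusted p = 0.198), and its second probe set gave 0.24. PSMD4, a receptor of ubiquitin chains, and PSMD13 had 0.17 and 0.16 (limma adjusted p = 0.321 and 0.248). PSMD3 had 0.06 (limma adjusted p = 0.780).

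PSMD11, which links the lid to the core, gave different values on its probe sets. The bright probe set had 10.98, 11.17, 11.06 and 11.01 in non-lactating and 11.02, 11.00, 11.14 and 11.28 in lactating pools 1 to 4, a difference of 0.06 ± 0.09 (SE, n = 4 each, limma adjusted p = 0.764), the smallest of the non-ATPase subunits. The dimmer one had 5.58, 6.51, 6.68 and 6.22 against 7.05, 6.73, 7.06 and 7.64, without overlap and with a difference of 0.87 ± 0.25 (SE, n = 4 each, limma adjusted p = 0.0639). On the minus strand of chromosome 12, the bright probe set aligned to positions 40189698 to 40201962 and the dimmer one to 40201945 to 40217270, toward the 5' side of it. Of the 7 other probe sets of the 37 genes, all had positive differences, from 0.01 for PSMC5 to 0.87, and 0 passed the threshold.

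The ATPases of the 19S particle had the smallest median difference among the subunit groups of the core and the 19S particle. On the probe sets that stand for them, none of the 5 measured genes passed, also at an unadjusted p below 0.05. On these, 4 of 5 differences were positive, and the median was 0.07. PSMC1 had the largest, with 9.43, 9.90, 10.00 and 9.97 in non-lactating and 9.90, 10.13, 10.12 and 10.33 in lactating pools 1 to 4, and its difference was 0.30 ± 0.14 (SE, n = 4 each, limma adjusted p = 0.238). Non-lactating pool 1 lay far below the rest, and lactating pool 1 lay within the non-lactating range. Without non-lactating pool 1 the difference was 0.17. PSMC5 had 11.22, 11.50, 11.43 and 11.32 against 11.33, 11.37, 11.39 and 11.33, a difference of -0.02 ± 0.08 (SE, n = 4 each, limma adjusted p = 0.942). The lactating pools of PSMC5 were tight, with an SD of 0.03, and lay inside the non-lactating range. PSMC2, PSMC3 and PSMC6 had differences of 0.23, 0.07 and 0.06. PSMC2 had 3 probe sets. On a dimmer one, all lactating pools lay above the non-lactating pools, with a difference of 0.30 ± 0.10 (SE, n = 4 each). That difference did not pass (limma unadjusted p = 0.0110, adjusted p = 0.0923). On the remaining probe set it was 0.14, with overlap (limma adjusted p = 0.399). Whether the ATPases differ from the other 19S subunits was not tested.

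**Figure D5:**
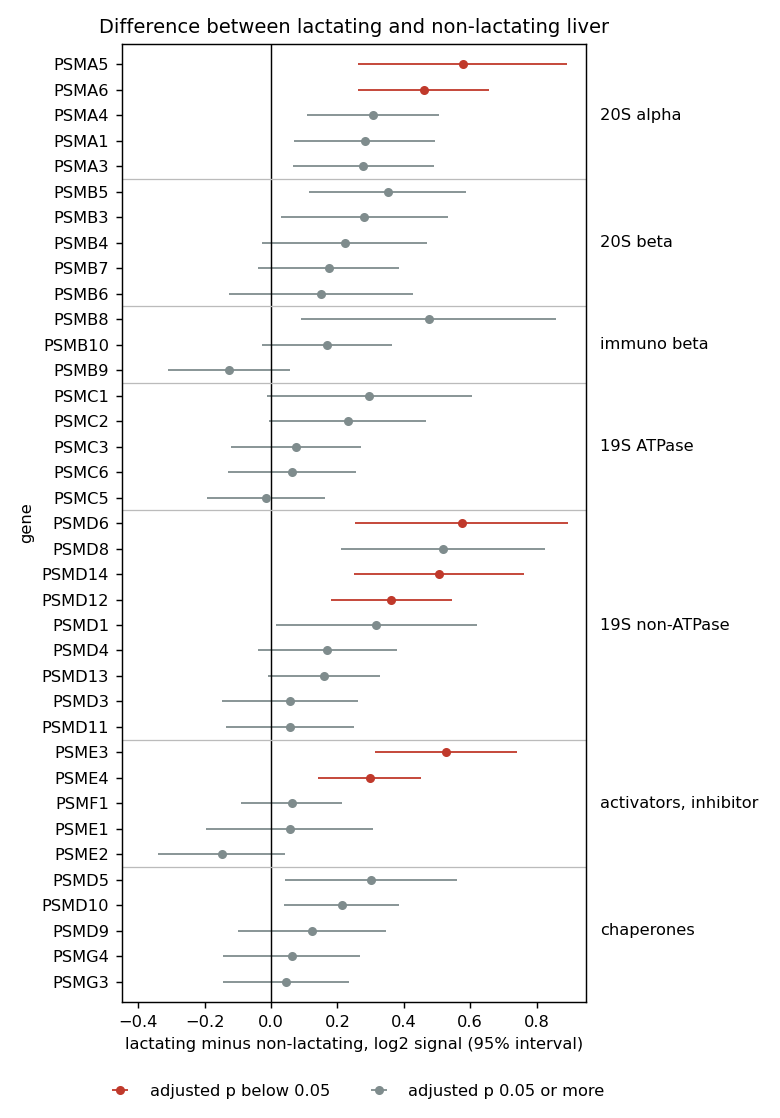
Difference between lactating and non-lactating pools in log2 signal (points, with 95% intervals from limma) for the 37 proteasome genes by role. The 7 genes with an adjusted p below 0.05 are in red, from 0.30 for PSME4 to 0.58 for PSMA5, and 34 of 37 points lie above 0.

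Among the assembly chaperones, which help to build the particles and are absent from the finished proteasome, 0 of 5 passed and the median was 0.12. At an unadjusted p below 0.05, 2 were higher, where 17.4% of all genes were. PSMD5, a chaperone of the 19S base, had 8.67, 9.10, 9.12 and 8.95 in non-lactating and 9.15, 9.18, 9.24 and 9.47 in lactating pools 1 to 4, a difference of 0.30 ± 0.12 (SE, n = 4 each, limma adjusted p = 0.155) without overlap. PSMD10 (gankyrin), another chaperone of the base, had 8.56, 8.51, 8.51 and 8.55 against 8.92, 8.70, 8.67 and 8.69, a difference of 0.21 ± 0.08 (SE, n = 4 each, limma adjusted p = 0.136). Here lactating pool 1 was the highest, unlike in most of the 37 genes. PSMD9 had 0.12 (limma adjusted p = 0.522). PSMG4 and PSMG3, chaperones of the alpha ring, had 0.06 and 0.05, and PSMG3, the lowest of the group, had 8.56, 8.34, 8.40 and 8.47 against 8.37, 8.64, 8.51 and 8.43 (SE 0.09, n = 4 each, limma adjusted p = 0.815), with overlap.

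Proteins that work on the proteasome but carry other symbols were read from lists of known partners. Of 5 measured genes for further subunits and partners, 3 rose and 0 fell (limma, with 3 higher and 0 lower at an unadjusted p below 0.05). Over all genes, 6.12% rose and 17.4% were higher at that unadjusted p. UCHL5, a deubiquitinating enzyme bound to the 19S particle, had 9.57, 9.74, 9.65 and 9.69 in non-lactating and 10.07, 10.20, 10.14 and 10.13 in lactating pools 1 to 4 and rose by 0.47 ± 0.07 (SE, n = 4 each, limma adjusted p = 0.0121). SEM1 (DSS1), a small lid subunit, rose by 0.43 ± 0.10 (SE, n = 4 each, limma adjusted p = 0.0288), from 11.35 to 11.72 in non-lactating to 11.96 to 12.11 in lactating pools. TXNL1, a thioredoxin-like protein bound to the 19S particle, rose by 0.36 ± 0.08 (SE, n = 4 each, limma adjusted p = 0.0303). In these 3 of the 5 genes all lactating values lay above all non-lactating values, as in 12.8% of all genes. PAAF1 and AKIRIN2 had -0.14 and 0.04 (limma adjusted p = 0.427 and 0.840).

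Of 18 measured genes of ubiquitin and its conjugating enzymes, 4 rose and 0 fell (limma; 9 higher and 0 lower at an unadjusted p below 0.05), where 6.12% of all genes rose and 17.4% were higher at that unadjusted p. The median difference was 0.17. The 4 were the E2 enzymes UBE2A (0.31 ± 0.07 SE, limma adjusted p = 0.0312), UBE2W (0.53 ± 0.12 SE, adjusted p = 0.0340), UBE2D2 (0.30 ± 0.07 SE, adjusted p = 0.0415) and UBE2N (0.32 ± 0.08 SE, adjusted p = 0.0458), with n = 4 each. Of 10 measured genes for shuttle and extraction factors, 0 passed (limma; 4 higher and 0 lower at an unadjusted p below 0.05), and their median was 0.01. UFD1 and FAF2, partners of the VCP segregase, had 0.24 and 0.23 (limma adjusted p = 0.0945 and 0.0976).

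The measured regulators of proteasome gene transcription did not pass either, 0 of 7 by limma and 0 at an unadjusted p below 0.05. NFE2L2 (NRF2), which drives genes of the antioxidant response, had 11.09, 11.03, 10.98 and 10.92 in non-lactating and 11.26, 11.47, 11.06 and 10.79 in lactating pools 1 to 4, a difference of 0.14 ± 0.13 (SE, n = 4 each, limma adjusted p = 0.583) with overlap. NFE2L1, which induces proteasome genes when proteasome activity is low, was not matched to a probe set. NGLY1, the enzyme that removes sugar chains from NFE2L1, had -0.15 (limma adjusted p = 0.308), and NFYB had -0.27 (limma adjusted p = 0.349). Of 10 measured genes of peptide supply to MHC class I and of interferon signalling, 0 passed (limma). At an unadjusted p below 0.05, 1 was higher and 0 lower, where 17.4% of all genes were higher and 10% lower. PDIA3 and STAT2 had 0.31 and 0.21 (limma adjusted p = 0.129 and 0.242). TAP1 and IRF1, which share interferon induction with PSMB9 and were chosen after their values were seen, had 0.02 and -0.01.

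Cells other than hepatocytes also contribute to whole liver RNA, and in bulk samples fewer cells of a type and less RNA per cell cannot be told apart. Hepatocyte markers (6 of 10 measured, ALB among them) had a mean log2 signal of 14.57 to 14.63 in non-lactating and 14.61 to 14.65 in lactating pools. Within that list SERPINA1 fell by 0.32 (limma adjusted p = 0.0212), APOB had a difference of 0.29 without overlap (limma adjusted p = 0.0617), and ALB held the highest signal of the whole table, 15.22. Pan-leukocyte markers (4 of 5 measured) had 7.22 to 7.40 in non-lactating and 7.13 to 7.25 in lactating pools. Markers of T and NK cells (11 of 12) had 5.83 to 5.97 and 5.68 to 5.83 (CD8A fell by 0.60, limma adjusted p = 0.0279), those of Kupffer cells and macrophages (9 of 11) 8.50 to 8.75 and 8.44 to 8.61, those of B and plasma cells (3 of 7) 5.11 to 5.64 and 5.12 to 5.42, and those of neutrophils (5 of 7) 4.50 to 4.96 and 4.55 to 4.71. Endothelial markers (9 of 10) had 7.70 to 7.82 and 7.44 to 7.59, without overlap (4 of the 9 fell by limma, where 2.52% of all genes fell), and markers of stellate cells and fibroblasts (8 of 10) 8.04 to 8.28 and 7.62 to 8.14 (2 of the 8 fell, limma). Markers of cholangiocytes (4 of 5) had 5.41 to 6.09 and 5.59 to 5.78, and no erythroid marker of the list was measured. The part of these cells in the values of PSMB8, PSMB9, PSMB10, PSME1 and PSME2, which immune cells express, was not tested.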

How the data were processed

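Liver RNA of 8 pools was hybridised to Affymetrix Porcine arrays. The authors deposited log2 RMA signals, made with Affymetrix Expression Console and RMA per the submitters' processing notes (no version stated), and a p-value per probe set, per the file headers. That p-value column was recomputed as an equal-variance test and served as a check. RMA quantile-normalises the arrays, so shifts common to all genes are removed, and the number of arrays limits the precision. Symbols were updated by Entrez identifier or RefSeq transcript. The genome assembly of the deposited alignments is not given here by any source used.

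All 23999 probe sets left after removing 124 controls were fitted with limma 3.58.1 (lmFit, eBayes) in R 4.3.3, 4 against 4 pools, Benjamini-Hochberg adjusted, threshold 0.05. The fit was tested on simulated data. The p-values measure only the spread between these pools of 2 sows. Pool values were printed for genes past the threshold, catalytic, immunoproteasome and activator genes and the extremes of each role. Values of PSMD8, PSMD10 and further probe sets of a gene, outside this rule, were added after they were seen. The members and lists were chosen with earlier results of these data known. Alternatives were cyclic loess, the other deposited table, a filter on the dimmest 25% of probe sets, an intensity trend, the authors' test, the mean of probe sets, a replicate block, the 3' minus 5' covariate and leaving out each pool.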

Additional observations from a re-analysis of the deposited data

Results flagged for a closer look

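In 3 of 80 groups of 4 pools tested, 1 pool stood apart from the others by a gap whose share of the group's whole range was above Dixon's 95% critical value, and chance flags about 5% of such groups. In PSMA1 the lowest non-lactating pool, pool 1, was separated by 0.831 of the range, with 10.18 against 10.45 to 10.51 in the other pools. In PSMD1 non-lactating pool 1 was separated by 0.860 of the range, with 10.94 against 11.21 to 11.25. In PSMD10 lactating pool 1 was the high pool, separated by 0.905 of the range, with 8.92 against 8.67 to 8.70. The difference of PSMD10 was 0.21, and it was 0.15 without lactating pool 1 and 0.27 with the 3' minus 5' covariate. Non-lactating pool 1 also had the highest 3' minus 5' signal, 5.02, the difference without it was 0.21 for PSMA1 and 0.25 for PSMD1 (0.28 and 0.32 with it), and with the 3' minus 5' covariate it was 0.02 and -0.01.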

How the results depend on the processing

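The number of proteasome genes that rose was 7, and it was 4 with cyclic loess (PSMA5, PSMD6 and PSMD12 were lost), 0 with the authors' equal-variance test (smallest adjusted p = 0.0528, 14 at an unadjusted p below 0.05, and 0 of all probe sets called) and 0 with the 3' minus 5' covariate, where the median difference was 0.0321 in place of 0.22. Leaving out 1 pool at a time gave 0 to 7 genes and medians of 0.17 to 0.28. It was 7 with the other deposited table and with the intensity trend, 8 without the dimmest probe sets and 6 with the mean of probe sets (PSMD14 was lost). The number that fell was 0 under every alternative run. With the replicate number as a block, 5 rose (PSMD12, PSMD14 and PSME4 were lost and PSMB8 gained). The calls in the whole table changed as well. Of all 23999 probe sets, 1643 were called in the main fit, 1576 with cyclic loess and 1790 with the replicate block. The other deposited table gave 1657 and the intensity trend 1543. Without the dimmest probe sets 1810 of 17999 were called. With the mean of probe sets it was 1446 of 20913 genes and unassigned probe sets. Same-numbered pools deviated together with correlations of 0.243, 0.090, 0.072 and 0.221, and not every pool correlated best with its own number. Pools 1 and 2 of the 2 groups correlated at 0.038 to 0.243, and pools 3 and 4 at 0.068 to 0.236. Between pools 1 or 2 of a group and pools 3 or 4 of the other, the correlations were -0.233 to 0.051. The labels state no pairing, and the main fit did not pair the pools. The cause of this split and of the changes between alternatives was not tested.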
